A study of Homo sapiens with 6 samples.

Results

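The tumor necrosis factor (TNF) superfamily ligands and receptors were the 44 genes, of 20811 in the table, whose symbols begin with TNFSF or TNFRSF and a number, or that carry an older name of a family member (TNF, LTA, LTB, FAS, FASLG, CD40, CD40LG, CD27, LTBR, NGFR, EDA2R, EDAR). They were taken by symbol alone, with no use of expression values, and comprised 16 ligands and 28 receptors. CD70, which the rule also names, was not analysed here. Expression was compared between a pair of lines made from HuCCT1, a human intrahepatic cholangiocarcinoma (iCCA) cell line. HuCCT1/CD90+ cells were transduced with a THY1-CMV-GFP lentivirus, in which the cytomegalovirus (CMV) promoter drives the vector, and THY1 is the gene of CD90, a surface glycoprotein. HuCCT1/CD90- cells received the Lenti-CMV-GFP-2A-Puro-Blank lentivirus. Both lines were transduced at a multiplicity of infection of 40, were grown in RPMI medium with fetal bovine serum, carried a GFP reporter, and gave 3 libraries each. The labels do not say whether the libraries came from separate cultures, and the study's methods speak of biological replicates only in general, so the p-values measure the spread between these libraries, which may be technical.

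Ligands of the family are mostly type II membrane proteins that act as trimers, on the cell surface or after shedding. Their receptors fall into classes. Death domain receptors (TNFR1, Fas, the TRAIL receptors, DR3 and DR6) can recruit TRADD or FADD and caspase-8 and so start apoptosis or, through RIPK3, necroptosis. Receptors without a death domain bind TNF receptor-associated factors (TRAFs) and feed the canonical and non-canonical NF-kB pathways. Decoy receptors bind ligand without passing on a full signal. In the biliary tree the TRAIL, Fas and TWEAK systems are known for roles in cholangiocyte injury and repair, and many of the other ligands (4-1BB ligand, OX40 ligand, LIGHT, GITR ligand) are best known as costimulators of T cells.

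The table gives RPM, reads scaled to a common library total, from 1 amplicon per gene. Levels were therefore compared between lines and not between genes, whose amplicons differ. Between 8587634 and 10551516 reads fell on genes in a library. The detection floor, set at 3 reads in a library, corresponded to 0.284 to 0.349 RPM, and floors and counting intervals cover counting error only, since the reads carry no molecular identifiers. THY1 (chr11:119417378-119424985) had 0, 1 and 0 reads in HuCCT1/CD90- against 435, 445 and 680 in HuCCT1/CD90+, so the transduced gene followed the labels. All 7 epithelial markers were above the floor, with a summed level between 8210 and 9314 RPM in HuCCT1/CD90- and between 10974 and 11722 RPM in HuCCT1/CD90+. All 5 T and NK cell markers and the leukocyte marker PTPRC were at the floor in both lines, whereas the B cell marker CD79A had 0 reads in HuCCT1/CD90- and 29 in HuCCT1/CD90+ (adjusted p = 0.0089). Other lists moved with the lines. The 6 myeloid markers summed to between 131.5 and 155 RPM in HuCCT1/CD90- against between 89.3 and 108 RPM in HuCCT1/CD90+, the 4 endothelial markers to between 14.5 and 23.2 against between 0.643 and 1.63 RPM, and the 6 fibroblast markers to between 41.8 and 64.9 against between 20.3 and 24.7 RPM. Members of the myeloid list moved both ways, with CD14 at 80.8 and 4.32 RPM and LYZ at 12.0 and 1.52 RPM (both called lower) but CD68 at 50.8 and 92.2 RPM (called higher). The endothelial difference was mainly that of CDH5 (16.6 and 0.293 RPM), while VWF had 0 and 8 reads. Of the 4 hepatocyte markers ALB, TF and TTR were at the floor in both lines, with TTR at 0, and APOA1 had 97 and 6 reads. Their part in the results was not tested. Here a gene is called higher or lower in HuCCT1/CD90+ where limma on log2(RPM + 1) gave a p, adjusted by Benjamini-Hochberg over all genes, of at most 0.05 and a fold change of at least 1.5 on that scale. Log2 fold changes are on the log2(RPM + 1) scale, which understates low genes, whereas a fold given in words is the ratio of mean RPM. In bulk RNA, fewer cells expressing a gene and less RNA per cell cannot be told apart.

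Of the 44 members, 9 were higher in HuCCT1/CD90+, 5 were lower and 30 were not called. The 14 called members are 31.8% of the family, beside 15.1% called over all genes tested (7.59% higher and 7.49% lower). In a fit blocked on the replicate number, 8 of the 14 calls were lost, which left LTB and TNFRSF19 higher and TNFSF9, TNFSF14, TNFSF10 and TNFSF4 lower, 13.6% of the family beside 10.1% of all genes. At the unadjusted p, 10 members were higher and 7 lower, beside 10.1% and 9.98% of all genes (20.1% in either direction). The libraries of the lines did not overlap for 12 members on the higher side and 10 on the lower, beside 17.3% and 17.7% of all genes. The ligands were split evenly, with 4 of 16 higher (TNFSF18, LTB, TNFSF11, TNFSF12) and 4 lower (TNFSF9, TNFSF14, TNFSF10, TNFSF4). Of the 28 receptors, 5 were higher (TNFRSF19, TNFRSF1B, TNFRSF11B, TNFRSF21, TNFRSF25) and 1 was lower (TNFRSF11A). The median log2 fold change was 0.0024 over the members and 0 over all genes. In all, 13 of the 44 were at the floor in both lines.

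**Figure D1:**
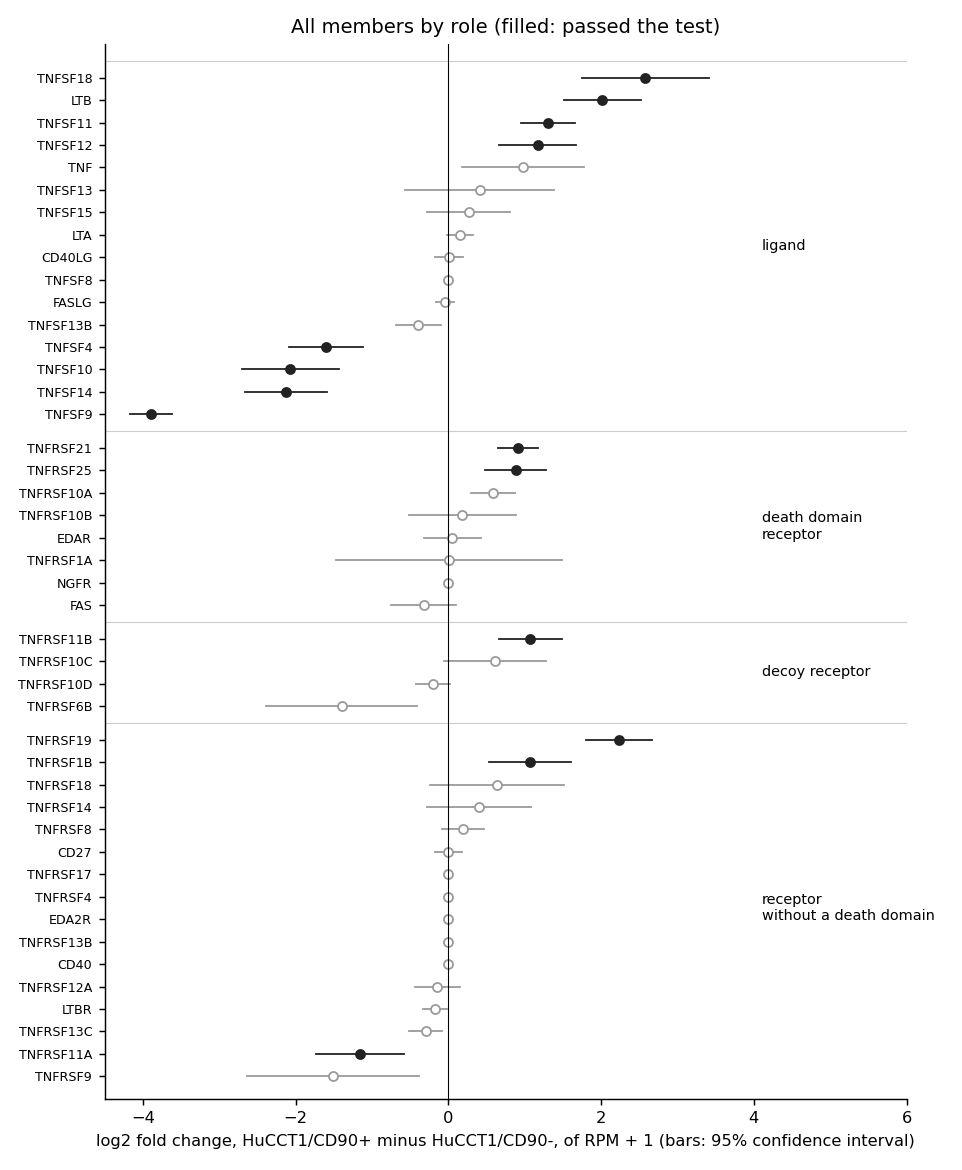
Log2 fold change of RPM + 1 (HuCCT1/CD90+ minus HuCCT1/CD90-, horizontal axis) for all 44 members, grouped by role, with bars for the 95% confidence interval and filled points for the 14 called members. Ligands lie at both ends of the axis, from TNFSF9 at -3.90 to TNFSF18 at 2.58, while the called receptors lie mainly on the higher side.

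The ligand with the largest difference on the log2(RPM + 1) scale was TNFSF9 (4-1BB ligand, a costimulator of T cells), at chr19:6530999-6535928. It was at 64.0, 73.1 and 69.7 RPM in the HuCCT1/CD90- libraries and at 3.86, 3.14 and 4.12 RPM in the HuCCT1/CD90+ libraries. The lines were far apart and the libraries within each were close together. Mean TNFSF9 fell from 68.9 ± 4.60 to 3.71 ± 0.507 RPM (SD, n = 3), 18.6-fold lower, with a log2 fold change of -3.90 (SE 0.10, 95% confidence interval -4.17 to -3.62, adjusted p = 0.00036). By size of log2 fold change it ranked 68 of the 1558 genes called lower. TNFSF14 (LIGHT, a ligand of the herpesvirus entry mediator HVEM and of the lymphotoxin-beta receptor) lies on the same chromosome at chr19:6661253-6670588. It was at 3.22, 5.35 and 5.04 RPM in HuCCT1/CD90- and at 0.214, 0.116 and 0.434 RPM in HuCCT1/CD90+, where 2 of the 3 libraries were under the floor. The lines did not overlap. TNFSF14 fell 17.8-fold, from 4.54 ± 1.15 to 0.255 ± 0.163 RPM, with a log2 fold change of -2.13 (SE 0.20, adjusted p = 0.0053). Around TNFSF9 the 50 nearest genes that averaged 10 RPM or more had a median log2 fold change of 0.02, and around TNFSF14 it was 0.00.

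**Figure D2:**
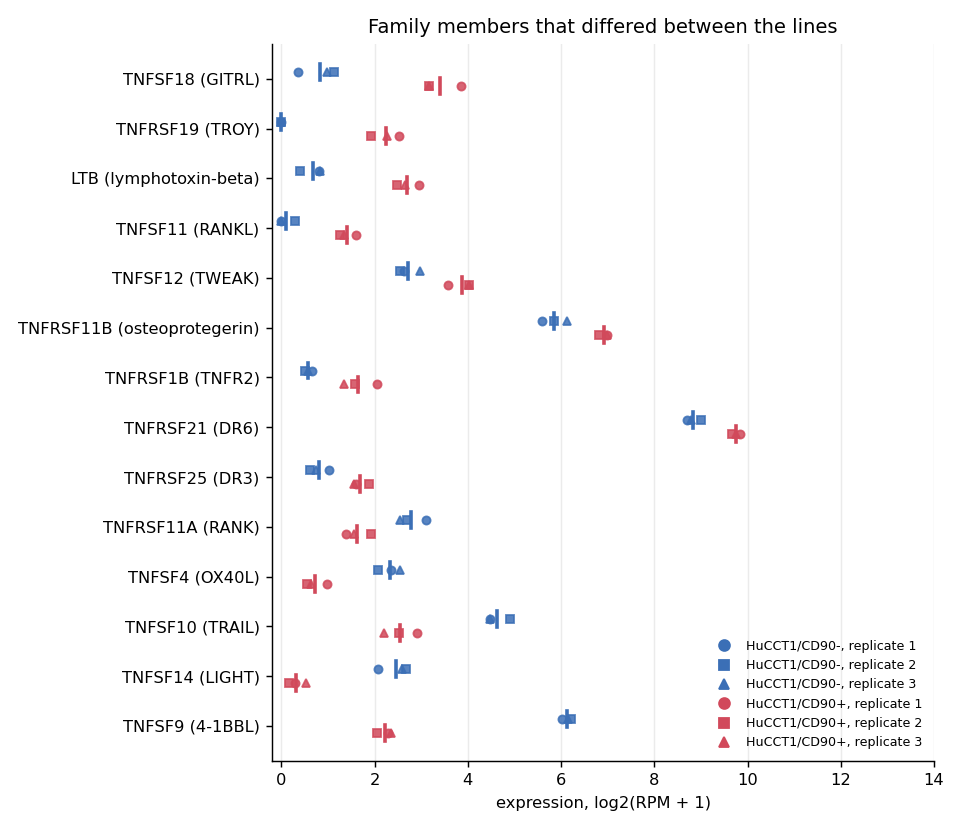
Expression as log2(RPM + 1) (horizontal axis) of the 14 called members in each library, with blue symbols for HuCCT1/CD90- and red for HuCCT1/CD90+, a symbol shape for each replicate number and a short line for the mean of 3 libraries. The blue and red points of each gene are apart, the widest gap on this scale being that of TNFSF9 (68.9 against 3.71 RPM).

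A neighbouring pair of ligands on chromosome 1 went in opposite directions. TNFSF18 (GITR ligand, a T cell costimulator), at chr1:173039960-173050963, was at 0.284, 1.18 and 0.97 RPM in HuCCT1/CD90- and at 13.5, 8.04 and 7.92 RPM in HuCCT1/CD90+. The lowest HuCCT1/CD90+ library was above every HuCCT1/CD90- library. TNFSF18 rose 12.1-fold, from 0.810 ± 0.467 to 9.82 ± 3.19 RPM, with a log2 fold change of 2.58 (SE 0.31, 95% confidence interval 1.75 to 3.41, adjusted p = 0.0097). Blocking on the replicate number gave an adjusted p of 0.078. TNFSF4 (OX40 ligand, which sustains T cell responses), at chr1:173183734-173207313, was at 4.08, 3.21 and 4.85 RPM in HuCCT1/CD90- and at 0.965, 0.466 and 0.543 RPM in HuCCT1/CD90+. It was thus lower in each HuCCT1/CD90+ library. TNFSF4 fell 6.15-fold, with a log2 fold change of -1.60 (SE 0.18, 95% confidence interval -2.08 to -1.13, adjusted p = 0.0081). The nearest 50 genes had a median log2 fold change of -0.27 around both ligands. The receptor of TNFSF4, TNFRSF4 (OX40), was at 0 in all 6 libraries. TNFRSF18 (GITR), the receptor of TNFSF18, had means of 0.701 and 1.65 RPM (log2 fold change 0.64, adjusted p = 0.29).

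The windows of 250 bases before the start of these ligands and of LTB are printed because these ligands form a pair that fell together on chromosome 19 and a pair that moved in opposite directions on chromosome 1, and because LTB holds the only kB match among the matched higher members. They are RefSeq sequences on GRCh38.p14, 5′ to 3′ on the strand of the gene, with capitals for matches on either strand to a kB site (searched as the Rel consensus), an AP-1 site (TGANTCA) or a GC box (GGGCGG). A TEAD site (GGAATG) was also searched and was in none of them. RefSeq starts differ from the GENCODE spans given here. The windows of TNFSF4 and TNFSF14 lie wholly inside those spans, and the others overlap an end of theirs. The windows lie at chr19:6530776-6531025 (plus strand) for TNFSF9, chr19:6670161-6670410 (minus strand) for TNFSF14, chr1:173205533-173205782 (minus strand) for TNFSF4, chr1:173050942-173051191 (minus strand) for TNFSF18 and chr6:31582426-31582675 (minus strand) for LTB.
TNFSF9: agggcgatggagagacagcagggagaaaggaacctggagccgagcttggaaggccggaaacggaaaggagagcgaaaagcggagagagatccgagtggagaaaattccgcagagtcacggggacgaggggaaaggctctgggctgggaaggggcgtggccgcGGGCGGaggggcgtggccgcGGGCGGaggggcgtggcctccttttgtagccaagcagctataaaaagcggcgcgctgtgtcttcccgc
TNFSF14: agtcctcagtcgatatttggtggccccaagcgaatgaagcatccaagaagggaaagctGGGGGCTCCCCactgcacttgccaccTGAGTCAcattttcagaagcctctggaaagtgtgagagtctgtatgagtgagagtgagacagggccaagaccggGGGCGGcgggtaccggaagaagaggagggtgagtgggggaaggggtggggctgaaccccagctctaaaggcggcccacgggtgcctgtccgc
TNFSF4: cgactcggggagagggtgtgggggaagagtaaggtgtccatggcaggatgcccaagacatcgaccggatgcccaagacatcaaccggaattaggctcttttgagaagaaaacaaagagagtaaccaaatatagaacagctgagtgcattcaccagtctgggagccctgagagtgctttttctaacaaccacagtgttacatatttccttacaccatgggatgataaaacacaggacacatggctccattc
TNFSF18: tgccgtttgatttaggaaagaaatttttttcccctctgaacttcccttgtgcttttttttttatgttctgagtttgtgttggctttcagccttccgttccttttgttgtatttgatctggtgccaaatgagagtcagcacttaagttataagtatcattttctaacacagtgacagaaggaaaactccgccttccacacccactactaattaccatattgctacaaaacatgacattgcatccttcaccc
LTB: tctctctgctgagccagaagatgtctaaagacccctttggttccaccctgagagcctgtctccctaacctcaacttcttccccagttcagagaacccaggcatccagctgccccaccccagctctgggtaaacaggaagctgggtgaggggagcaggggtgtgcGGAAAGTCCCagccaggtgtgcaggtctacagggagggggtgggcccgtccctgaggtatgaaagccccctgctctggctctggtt
The LTB window held 1 kB match, whose first base is 86 bases before the start. The TNFSF14 window held 2 kB matches that overlap each other, an AP-1 match starting 166 bases and a GC box starting 92 bases before the start. TNFSF9 had GC boxes at 88 and 68 bases, and TNFSF4 and TNFSF18 had no match to these letters in the window. RefSeq windows were matched for 12 of the 14 called members. A kB match was present in 2 of the 12, 1 of the 7 matched higher members and 1 of the 5 matched lower ones, beside 11.2% of all 14007 windows. An AP-1 match was in 1 of the 12 and a GC box in 6, beside 5.15% and 56.3% of all windows. The TEAD letters were in 0 of the 12, beside 10.1%. The windows differed in base composition, with 23 CpG dinucleotides in that of TNFSF9 and 2 in that of LTB, the median over all windows being 17.

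The TRAIL system had less ligand RNA in HuCCT1/CD90+ and death and membrane decoy receptors that were not called. TNFSF10 (TRAIL, which induces apoptosis through its death receptors), at chr3:172505508-172523507, was at 21.1, 28.9 and 21.3 RPM in HuCCT1/CD90- and at 6.54, 4.77 and 3.58 RPM in HuCCT1/CD90+. No library of one line came near the other. TNFSF10 fell 4.79-fold, from 23.8 ± 4.42 to 4.96 ± 1.49 RPM, with a log2 fold change of -2.07 (SE 0.24, 95% confidence interval -2.71 to -1.43, adjusted p = 0.0085). The 50 nearest genes moved the other way, with a median of 0.57. TNFRSF10A (DR4, a death receptor for TRAIL) was at 28.3, 32.5 and 29.9 RPM in HuCCT1/CD90- and at 43.1, 52.5 and 42.0 RPM in HuCCT1/CD90+. Its libraries did not overlap, and its log2 fold change of 0.58 (SE 0.11, adjusted p = 0.030) was just under the fold threshold, at which edgeR (adjusted p = 0.0058) and DESeq2 (adjusted p = 0.0020) called it higher. TNFRSF10B (DR5, the other death receptor for TRAIL) had means of 104 ± 19.7 and 120 ± 30.1 RPM, with a difference of 0.18 (95% confidence interval -0.52 to 0.89). TNFRSF10D (DcR2, a decoy with a truncated death domain) was at 62.2 ± 2.08 and 54.0 ± 5.69 RPM, with a difference of -0.20 (95% confidence interval -0.43 to 0.02). TNFRSF10C (DcR1, a glycolipid-anchored decoy) had means of 3.83 and 6.15 RPM (log2 fold change 0.61, adjusted p = 0.19). These 4 receptors lie together on chromosome 8 and are similar in sequence, and whether their amplicons share reads was not tested.

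The RANK ligand system showed the ligand and its soluble decoy higher and the signalling receptor lower. TNFSF11 (RANKL, the osteoclast differentiation ligand), at chr13:42562736-42608013, was at 0, 0.214 and 0 RPM in HuCCT1/CD90- and at 2.04, 1.40 and 1.52 RPM in HuCCT1/CD90+. The former line was at the floor and every library of the latter was above it. Summed over libraries, TNFSF11 had 2 reads against 45, a depth-adjusted ratio of 25.05 with a 95% counting interval of 6.54 to 213. Its log2 fold change was 1.31 (SE 0.13, adjusted p = 0.0062), blocking gave an adjusted p of 0.055, and with an offset of 5 RPM it fell under the fold threshold. TNFRSF11B (osteoprotegerin, the secreted decoy for RANKL that also binds TRAIL), at chr8:118923557-118952200, was at 47.3, 56.5 and 68.9 RPM in HuCCT1/CD90- and at 125, 112 and 126 RPM in HuCCT1/CD90+. All HuCCT1/CD90+ libraries were higher. TNFRSF11B rose 2.10-fold, with a log2 fold change of 1.07 (SE 0.16, 95% confidence interval 0.66 to 1.49, adjusted p = 0.015). The call was lost with the block (adjusted p = 0.061) and without HuCCT1/CD90- replicate 2 (0.059), HuCCT1/CD90+ replicate 1 (0.062) or HuCCT1/CD90+ replicate 3 (0.066). TNFRSF11A (RANK, the receptor), at chr18:62325287-62391292, was at 7.58, 5.46 and 4.85 RPM in HuCCT1/CD90- and at 1.61, 2.79 and 1.95 RPM in HuCCT1/CD90+. The lines did not overlap. TNFRSF11A fell 2.81-fold, with a log2 fold change of -1.16 (SE 0.22, adjusted p = 0.030). That call was lost with the block (adjusted p = 0.12) and without HuCCT1/CD90- replicate 1 (0.064), 2 (0.086) or 3 (0.063) or HuCCT1/CD90+ replicate 1 (0.089) or 3 (0.11).

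**Figure D3:**
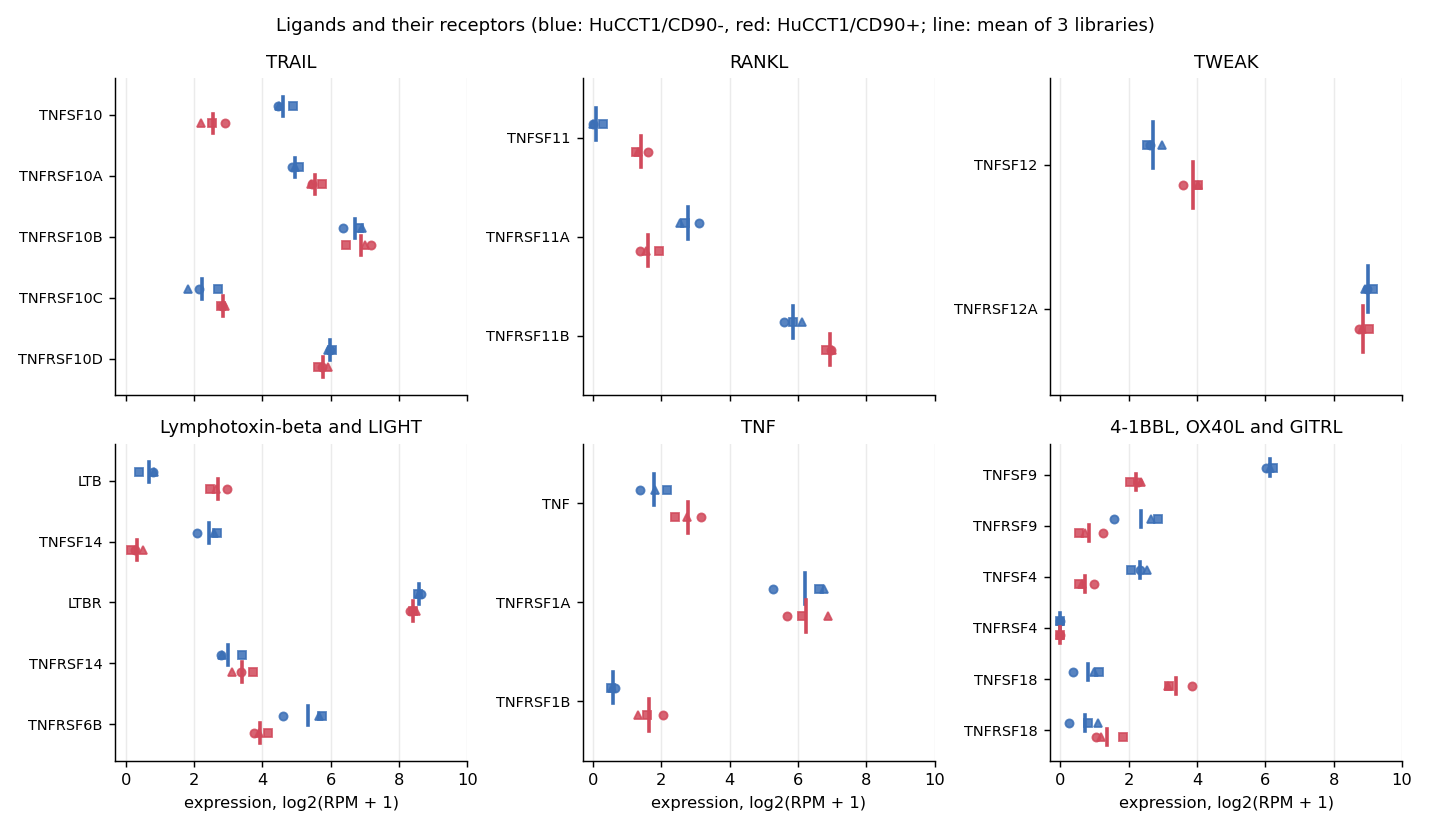
Expression as log2(RPM + 1) (horizontal axes) of 6 groups of ligands and their receptors, with 1 point per library in blue (HuCCT1/CD90-) or red (HuCCT1/CD90+) and a line for the mean of 3 libraries. TRAIL (TNFSF10) fell from 23.8 to 4.96 RPM above receptors whose points overlap or lie close, and RANK (TNFRSF11A) and RANKL (TNFSF11) went in opposite directions.

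Among the ligands of the lymphotoxin and TNF locus on chromosome 6, LTB was higher. LTB (lymphotoxin-beta, which forms a membrane heterotrimer with lymphotoxin-alpha), at chr6:31580525-31582522, was at 0.758, 0.321 and 0.776 RPM in HuCCT1/CD90- and at 6.75, 4.54 and 5.32 RPM in HuCCT1/CD90+. Each HuCCT1/CD90+ library was above all of the other line. LTB rose 8.96-fold, from 0.618 ± 0.258 to 5.54 ± 1.12 RPM, with a log2 fold change of 2.01 (SE 0.19, 95% confidence interval 1.51 to 2.52, adjusted p = 0.0050). LTA, its partner, was at the floor in both lines. TNF (the founding ligand) was at 1.61, 3.53 and 2.52 RPM in HuCCT1/CD90- and at 7.93, 4.31 and 5.75 RPM in HuCCT1/CD90+. Its libraries did not overlap, but the spread was wide and limma gave a log2 fold change of 0.98 (SE 0.30, 95% confidence interval 0.18 to 1.78, adjusted p = 0.10). On recovered reads edgeR (adjusted p = 0.0041) and DESeq2 (adjusted p = 0.0055) called TNF higher. The adjusted p was 0.28 with the replicate block and 0.11 to 0.24 with a library left out. LTBR (the receptor of lymphotoxin-beta and LIGHT) was at 399, 372 and 385 RPM in HuCCT1/CD90- and at 318, 342 and 364 RPM in HuCCT1/CD90+, a difference of -0.18 (95% confidence interval -0.33 to -0.02, adjusted p = 0.13). TNFRSF14 (HVEM, the other receptor of LIGHT) had means of 7.21 and 9.75 RPM (log2 fold change 0.40, adjusted p = 0.41).

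TNFSF12 (TWEAK, a regulator of tissue repair), at chr17:7548891-7557890, was higher, and its receptor was not called. It was at 5.21, 4.82 and 6.79 RPM in HuCCT1/CD90- and at 10.9, 15.4 and 15.3 RPM in HuCCT1/CD90+, with no overlap. TNFSF12 rose 2.47-fold, with a log2 fold change of 1.17 (SE 0.19, 95% confidence interval 0.67 to 1.67, adjusted p = 0.020). The call was lost with the block (adjusted p = 0.058) and without HuCCT1/CD90- replicate 1 (0.069) or 2 (0.068) or HuCCT1/CD90+ replicate 2 (0.071) or 3 (0.078). A TNFSF12-TNFSF13 read-through is annotated at the locus, so reads of either transcript cannot be told apart. TNFRSF12A (Fn14, the TWEAK receptor) was at 517 ± 46.8 and 468 ± 51.3 RPM, with a difference of -0.14 (95% confidence interval -0.44 to 0.15, adjusted p = 0.51).

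Of the 8 death domain receptors, 2 were higher and none lower, 25% called against 15.1% of all genes (7.59% higher). TNFRSF21 (DR6, a death receptor known from neurons and T cells), at chr6:47231532-47309905, was at 417, 512 and 442 RPM in HuCCT1/CD90- and at 910, 806 and 863 RPM in HuCCT1/CD90+. The lines were well separated. TNFRSF21 rose 1.88-fold, from 457 ± 49.6 to 859 ± 52.1 RPM, with a log2 fold change of 0.91 (SE 0.10, 95% confidence interval 0.65 to 1.17, adjusted p = 0.0069). With the replicate block its adjusted p was 0.063. TNFRSF25 (DR3, the receptor of TL1A), at chr1:6460786-6466195, was at 1.04, 0.535 and 0.679 RPM in HuCCT1/CD90- and at 2.04, 2.68 and 1.95 RPM in HuCCT1/CD90+. It was low in both lines, which did not overlap. TNFRSF25 rose 2.96-fold, with a log2 fold change of 0.88 (SE 0.15, adjusted p = 0.023). The call was lost with the block (adjusted p = 0.11), with an offset of 5 RPM and without HuCCT1/CD90- replicate 2 (0.066) or 3 (0.084) or HuCCT1/CD90+ replicate 1 (0.069), 2 (0.063) or 3 (0.066). Its ligand TNFSF15 (TL1A) had means of 2.84 and 3.55 RPM (log2 fold change 0.26, adjusted p = 0.52). FAS (the receptor of Fas ligand) was at 13.2 ± 2.51 and 10.3 ± 1.07 RPM, a difference of -0.33 (95% confidence interval -0.75 to 0.10), and FASLG was at the floor.

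The TNF receptors differed in what could be read from them. TNFRSF1B (TNFR2, which lacks a death domain and responds best to membrane TNF), at chr1:12167003-12209228, was at 0.569, 0.428 and 0.485 RPM in HuCCT1/CD90- and at 3.11, 1.98 and 1.52 RPM in HuCCT1/CD90+. All HuCCT1/CD90+ libraries were higher. TNFRSF1B rose 4.46-fold, with a log2 fold change of 1.07 (SE 0.20, 95% confidence interval 0.54 to 1.60, adjusted p = 0.030). The call was lost with the block (adjusted p = 0.072), with an offset of 5 RPM and without HuCCT1/CD90- replicate 1 (0.082), 2 (0.097) or 3 (0.098) or HuCCT1/CD90+ replicate 2 (0.086). TNFRSF1A (TNFR1, the main death domain receptor of TNF) was at 37.5, 96.7 and 107 RPM in HuCCT1/CD90- and at 50.6, 68.4 and 115 RPM in HuCCT1/CD90+. The lines overlapped throughout, with replicate 1 lowest in both. The difference of 0.01 (SE 0.55) had a 95% confidence interval of -1.47 to 1.49, so that a change of 2-fold either way lies within it.

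TNFRSF19 (TROY, a receptor of epithelial and neural progenitors), at chr13:23570370-23676104, had no read in any HuCCT1/CD90- library. In HuCCT1/CD90+ it was at 4.72, 2.79 and 3.80 RPM, 103 reads in all. TNFRSF19 was at least 12.6-fold higher, against the floor of 3 reads per library, with an adjusted p of 0.0026. TNFRSF25 and TNFRSF1B lie in a stretch of chromosome 1 whose genes were lower in HuCCT1/CD90+, with a median log2 fold change of -0.54 and -0.51 over the nearest 50 genes, and both receptors were higher. TNFRSF9 lies between them, with a neighbourhood median of -0.58, and was itself at lower levels in HuCCT1/CD90+. When the neighbourhood median was taken from each gene with a position (18609 of 20811, all members included), the same 14 members were called.

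By limma with all libraries and genes, TNFRSF6B and TNFRSF9 were called lower at the unadjusted p only, and in both HuCCT1/CD90- replicate 1 stood apart from the other libraries of its line. TNFRSF6B (DcR3, a soluble decoy for Fas ligand, LIGHT and TL1A) was at 23.2, 52.9 and 49.9 RPM in HuCCT1/CD90- and at 12.5, 17.0 and 13.9 RPM in HuCCT1/CD90+. The log2 fold change was -1.40 (SE 0.37, adjusted p = 0.071) and, without that replicate, -1.77 (adjusted p = 0.013). Leaving out any other library gave an adjusted p of 0.14 to 0.19, and the replicate block 0.092. The annotation holds an RTEL1-TNFRSF6B read-through, and reads of it and of TNFRSF6B cannot be told apart here. RTEL1 itself had means of 40.9 and 33.7 RPM (log2 fold change -0.26). TNFRSF9 (4-1BB, the receptor of TNFSF9) was at 1.99, 6.21 and 5.24 RPM in HuCCT1/CD90- and at 1.39, 0.466 and 0.651 RPM in HuCCT1/CD90+. Its log2 fold change was -1.51 (SE 0.42, adjusted p = 0.082) and, without HuCCT1/CD90- replicate 1, -1.90 (adjusted p = 0.033). Leaving out any other library gave an adjusted p of 0.13 to 0.22, and the replicate block 0.23. Receptor and ligand of the 4-1BB pair were thus both at lower levels in all HuCCT1/CD90+ libraries. With edgeR, TNFRSF6B (adjusted p = 4.6e-05) and TNFRSF9 (adjusted p = 0.00032) were called lower with all libraries, as both were by limma with median centring (adjusted p = 0.021 and 0.026).

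The members at the floor in both lines were the ligands CD40LG, FASLG, LTA and TNFSF8 and the receptors CD27, CD40, EDA2R, EDAR, NGFR, TNFRSF13B, TNFRSF17, TNFRSF4 and TNFRSF8. Of these, 7 had no read in any of the 6 libraries (CD40, EDA2R, NGFR, TNFRSF13B, TNFRSF17, TNFRSF4 and TNFSF8), and a count of 0 allows up to 0.284 to 0.349 RPM. Among the members at the floor in both lines are receptors best known from B and T cells, such as CD27 and the BAFF and APRIL receptors TACI (TNFRSF13B) and BCMA (TNFRSF17). The remaining low members were not called. TNFSF13 (APRIL) had means of 0.78 and 1.44 RPM, TNFSF13B (BAFF) 0.563 and 0.185 RPM, and TNFRSF13C (BAFF receptor) 0.458 and 0.182 RPM.

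Downstream of the receptors, 80 genes in 5 lists (adaptors, death signalling, NF-kB, induced genes, and shedding proteases with family genes outside the rule) were examined. Of these 80, 4 were higher and 4 lower, 10% against 15.1% over all genes, and their median log2 fold change was 0. These counts depended on the setting. With median centring 7 were higher and 10 lower (21.2% against 18.8% of all genes). With edgeR after its filter 12 were higher and 12 lower. This was 30% of all 80, whether or not they passed the filter, against 34.8% of the genes that passed, so the shares are not alike. With a library left out 2 to 11 were lower (3.75% to 16.2% called in either direction against 8.98% to 11.6%). None of the 20 adaptors and ubiquitin enzymes was called by limma (1 higher and 0 lower at the unadjusted p). The adaptor TRADD was at 12.1 and 12.9 RPM (adjusted p = 0.91), FADD at 151 and 215 RPM (adjusted p = 0.13), RIPK1 at 40.7 and 31.5 RPM (adjusted p = 0.16) and TRAF2 at 18.5 and 20.4 RPM (adjusted p = 0.75) in HuCCT1/CD90- and HuCCT1/CD90+. TRAF1 was at 3.63 and 2.90 RPM (adjusted p = 0.64), BIRC3 at 50.6 and 68.6 RPM (adjusted p = 0.57) and the deubiquitinase TNFAIP3 at 22.2 ± 11.8 and 36.7 ± 9.84 RPM (adjusted p = 0.40). With edgeR TNFAIP3 was called higher (log2 fold change 0.74, adjusted p = 0.047), and with DESeq2 it was not (adjusted p = 0.27). Of the 10 death signalling genes, 1 was higher. RIPK3 (the kinase of necroptosis) was at 0, 0.321 and 0.194 RPM in HuCCT1/CD90- and at 2.04, 3.49 and 2.60 RPM in HuCCT1/CD90+, without overlap, a log2 fold change of 1.65 (adjusted p = 0.0086). With an offset of 5 RPM, RIPK3 fell under the fold threshold (0.57). CASP8 (7.92 and 7.13 RPM, adjusted p = 0.32) and its inhibitor CFLAR (19.2 and 22.9 RPM, adjusted p = 0.15) were not called.

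Of the 17 NF-kB kinases and subunits, 3 were higher and 0 lower by limma, 17.6% called against 15.1% of all genes (3 higher and 2 lower at the unadjusted p). Libraries did not overlap for 3 genes on the higher side and 5 on the lower, beside 17.3% and 17.7% of all genes. MAP3K7 (TAK1, the kinase upstream of IKK) averaged 8.85 ± 1.27 RPM in HuCCT1/CD90- against 14.9 ± 1.43 RPM (log2 fold change 0.70, adjusted p = 0.028). Its binding partner TAB3 rose from 41.6 ± 12.4 to 114 ± 15.3 RPM (log2 fold change of 1.47, limma adjusted p = 0.031) and the inhibitor NFKBIB from 38.0 ± 5.83 to 59.0 ± 1.33 RPM (0.63, adjusted p = 0.032). For NFKBIB the adjusted p with the replicate block was 0.11. With a library left out, log2 fold changes were 0.58 to 0.76 for MAP3K7, 1.20 to 1.63 for TAB3 and 0.51 to 0.73 for NFKBIB. MAP3K7 was lost without any one of the 6 (adjusted p = 0.039, under the fold, to 0.087), TAB3 without any one but HuCCT1/CD90- replicate 1 (0.061 to 0.11) and NFKBIB without any one but HuCCT1/CD90- replicate 2 (0.094 to 0.11, and under the fold without HuCCT1/CD90- replicate 1). The non-canonical subunits were not called, with NFKB2 at 386 and 448 RPM and RELB at 33.2 and 28.8 RPM (adjusted p = 0.57 for both). Of the 9 shedding proteases and family genes outside the rule, 0 were called by limma (1 at the unadjusted p).

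Of the 30 genes known to be induced by TNF and NF-kB, 4 were lower and 0 higher (10 lower and 1 higher at the unadjusted p). The 13.3% called is near the 15.1% of all genes, and the share lower over all genes was 7.49% (9.98% at the unadjusted p). CCL2 (a monocyte chemokine) averaged 36.3 ± 8.0 RPM in HuCCT1/CD90- against 1.85 ± 0.473 RPM (log2 fold change -3.70, adjusted p = 0.0016), and VCAM1 (a leukocyte adhesion molecule) fell from 9.32 ± 1.46 to 0.962 ± 0.285 RPM (-2.40, adjusted p = 0.0023). PTGS2 (cyclooxygenase-2) was at 32.6, 80.2 and 117 RPM in HuCCT1/CD90- and at 12.8, 14.3 and 13.2 RPM in HuCCT1/CD90+ (-2.25, adjusted p = 0.049, with the block 0.11). TNFAIP2 (a TNF-induced gene of endothelial cells) was at 474, 916 and 566 RPM in HuCCT1/CD90- and at 241, 305 and 242 RPM in HuCCT1/CD90+ (-1.26, adjusted p = 0.050, with the block 0.057). The PTGS2 call was lost without any one library but HuCCT1/CD90- replicate 1 (adjusted p = 0.10 to 0.15), and that of TNFAIP2 without any one but HuCCT1/CD90- replicate 2 (0.058 to 0.15). For both genes HuCCT1/CD90- replicate 1 was again the lowest of its line. It was so for 24 of the 29 genes of the list with reads in that line, with 2 more tied. The share over all genes was not counted. The mean log2(RPM + 1) of the list was 3.60, 4.54 and 4.38 in HuCCT1/CD90- and 3.53, 3.47 and 3.55 in HuCCT1/CD90+, so that replicate 1 lay nearer to the other line. HuCCT1/CD90- replicate 1 also had the lowest mean of its line in each other pathway list. The HuCCT1/CD90- means were 4.57, 4.86 and 4.76 for the adaptors and 3.28, 3.40 and 3.34 for death signalling. They were 5.02, 5.43 and 5.29 for the NF-kB list and 4.84, 5.09 and 5.05 for the shedding list. Without HuCCT1/CD90- replicate 1, 11 pathway genes were called lower in place of 4, and 16.2% of the 80 were called in either direction against 11.6% of all genes. What sets that library apart was not tested.

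**Figure D4:**
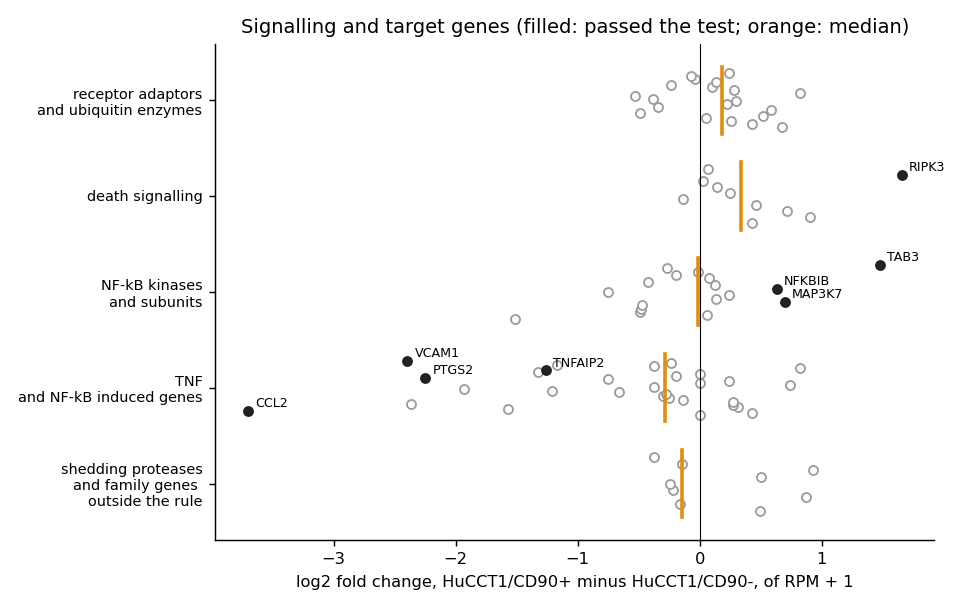
Log2 fold change of RPM + 1 (HuCCT1/CD90+ minus HuCCT1/CD90-, horizontal axis) for each gene of the 5 pathway lists, with filled points for called genes and an orange line for the list median. The 4 called genes of the induced list lie to the left (CCL2 at -3.70) and those of the other lists to the right.

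**Figure D5:**
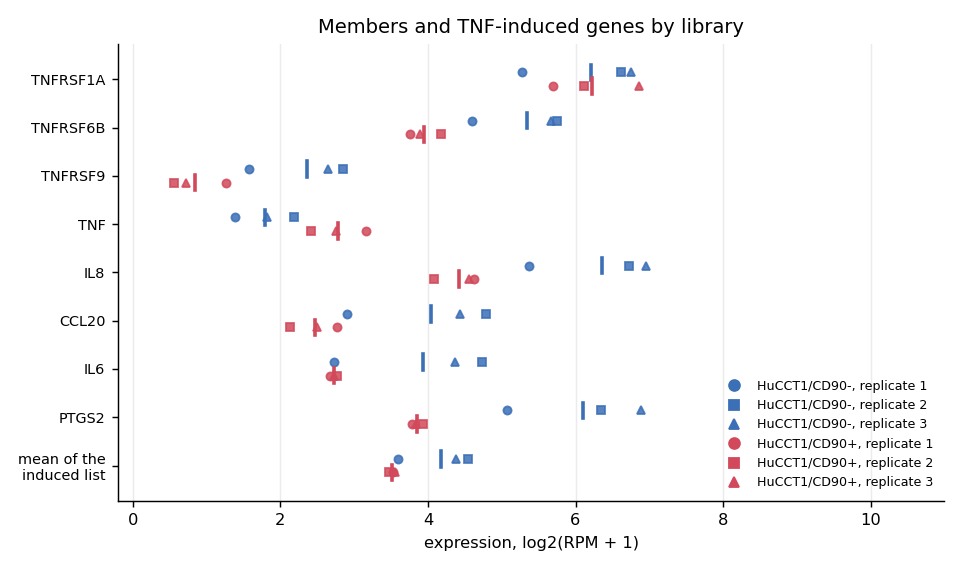
Expression as log2(RPM + 1) (horizontal axis) by library for 4 members, 4 genes of the induced list and the mean of that list, in blue for HuCCT1/CD90- and red for HuCCT1/CD90+ with a symbol for each replicate number and a line for the mean. IL8, CCL20 and IL6 were chosen after their values were seen, and the blue circles (replicate 1) lie apart from the other blue symbols, at 3.60 against 4.54 and 4.38 for the list mean.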

How the data were processed

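Total RNA of 3 HuCCT1/CD90+ and 3 HuCCT1/CD90- libraries was amplified with the Ion AmpliSeq Transcriptome Human Gene Expression panel (1 amplicon per gene) and read on an S5 Prime sequencer. The authors counted reads with the ampliSeqRNA plugin of Torrent Suite and deposited RPM values of 20811 genes, unfiltered. The submitters' processing notes name hg19 and the Transcriptome Analysis Console. The table holds no positions, so those of genes were looked up by symbol in GENCODE on GRCh38 (all 44 members), and amplicon positions are not given in the sources used here. Isoforms outside the amplicon are therefore not seen.

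Log2(RPM + 1) was tested over all 20811 genes in R 4.3.3, with no replicate block, by limma 3.58.1 (lmFit, eBayes, Benjamini-Hochberg). The study's methods also name limma with eBayes. Adjusted p-values are from limma unless another tool is named. Each deposited value was a whole number of reads within 0.0011 RPM for 100% of values. The recovered reads were tested with edgeR 4.0.16 (quasi-likelihood) and DESeq2 1.42.0 as alternatives, which called 4200 (12070 genes after filterByExpr) and 4238 genes. Scripts were checked on simulated data. Deviations of same-numbered libraries from their line means correlated with r = 0.178 to 0.320, and those of other pairs with r = -0.294 to 0.0706, so same-numbered libraries deviated together. The labels do not say what a number marks. The main fit is unpaired, and a fit with the block is given beside each call that it changes. The study's methods do not say whether libraries were paired. No library was a copy of another (chi-square per degree of freedom of at least 9.18).

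Named were all called members, members with a mean of at least 10 RPM or called only at the unadjusted p, and of each pathway list up to 4 called genes with 11 fixed ones. Other members were named after their values were seen. The members and lists, which include markers of 7 cell types, were chosen with earlier results of these data known. The result of 1 marker list is not reported here. Alternatives were other offsets, filters on low values, quantile normalization, median centring, eBayes with trend, the block, leaving out each library, the unadjusted p, a fold of 2, and removal of the median of the 50 nearest genes.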

Additional observations from a re-analysis of the deposited data

How the results depend on the processing

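With 3 libraries a line, calls near the threshold depended on the setting. Main counts were 9 members higher and 5 lower, and 4 pathway genes higher and 4 lower. All 14 called members kept their direction under every alternative in which they were tested. With the replicate block, 2 members were higher (LTB and TNFRSF19), 4 were lower, and 2 pathway genes were lower. Among named members and pathway genes, the block changed no other call than those given with the results. Its effect on the marker genes is not given. With a mean of at least 10 RPM, 2 members were higher and 3 lower. These were 5 of the 12 members tested, beside 29.3% of the genes tested. There 10 called members were filtered out and TNFRSF6B was gained as lower. Members higher numbered 6 to 7 and members lower 4 to 6 with each library left out (22.7% to 29.5% called against 8.98% to 11.6% of all genes), and THY1 kept a log2 fold change of 5.60 to 5.92.

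The share of the 80 pathway genes called in either direction was 3.75% against 11.6% of all genes with an offset of 5 RPM, 26.2% against 33.3% and 20% against 29.3% with means of at least 1 and 10 RPM, 21.2% against 18.8% with median centring, 25% against 20.1% at the unadjusted p, 30% against 34.8% and 32.5% against 22.5% with edgeR with and without a filter, 27.5% against 24.9% with DESeq2 and 7.5% against 10.1% with the block. Pathway genes higher numbered 1 with an offset of 5 RPM, 10 and 8 with means of at least 1 and 10 RPM, 7 with median centring, 9 at the unadjusted p, 2 at a fold of 2, 12 with edgeR with or without a filter, 10 with DESeq2 and 1 to 2 with a library left out. Pathway genes lower numbered 2 with an offset of 5 RPM, 11 and 8 with means of at least 1 and 10 RPM, 10 with median centring, 2 with eBayes trend and robust settings, 11 at the unadjusted p, 12 and 14 with edgeR with and without a filter, 12 with DESeq2 and 2 to 11 with a library left out. The cause was not tested.

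Values near 0 changed sign. TNFRSF1A was -0.035 with quantile normalization, -0.015 with median centring, -0.029 and -0.028 with edgeR with and without a filter, -0.022 with DESeq2 and -0.084 with the neighbourhood median removed, and -0.46 to 0.28 with a library left out. TNFRSF12A was 0.11 with the neighbourhood median removed. With a library left out, TRADD was -0.061 to 0.24 and TRAF2 -0.0021 to 0.26. Scaling moved the median of all genes by less than 0.1 on the log2 scale. Over all genes, 3138 were called, 2102 with the block, 1874 at a fold of 2 and 1868 without HuCCT1/CD90+ replicate 3, against 4689 with edgeR without a filter.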
